A study of Mus musculus with 33 samples.

Results

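Constitutive lamina-associated domains (LADs) are described here: the stretches of the mouse genome that were listed as LAD in the E11.5 heart, in the E11.5 forebrain and in embryonic stem (mES) cells alike. The members were selected on the 3 deposited LAD lists, by taking each bin of 10 kb on chromosomes 1 to 19 that stood in all 3 lists and joining adjacent bins. This gave 2790 regions, made of 81118 bins out of the 240077 bins between the outermost listed bins of each chromosome, or 811 Mb of 2401 Mb. LAD status in these sources chose the regions, so every value of that kind is a description and was not tested.

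LADs are long stretches of chromatin that lie against the nuclear lamina, the mesh of lamin proteins under the inner nuclear membrane. They are generally poor in active genes and carry dimethylation of histone H3 lysine 9 (H3K9me2), a mark of repressed chromatin laid down by the methyltransferases EHMT1 and EHMT2. LADs found in many cell types are called constitutive and those that differ between cell types facultative.

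The study profiled H3K9me2 and Lamin B1, a protein of the lamina, by CUT&RUN, which releases the DNA under an antibody from permeabilised cells. Wild-type E11.5 C57BL6J litters gave whole hearts and the right lobe of the forebrain, pooled by tissue, and the mES cells were a C57BL/6 line from a cell bank, started on feeder fibroblasts and then grown in LIF with 2 inhibitors (2i). Each source had 3 biological replicates, litter pools for the tissues and culture vessels for the cells, and the 33 libraries comprise 3 of H3K9me2 and 3 of Lamin B1 in each source, besides IgG, with 6 libraries for heart, 6 for forebrain and 3 for mES cells. The kit ranged over several versions. The deposited lists give 1 pooled map per source, in the states LAD, KOD (the depositors' own label, not spelled out in the sources used here) and open, with no score. No value below therefore has a replicate error, and how deeply a domain was sequenced is unknown. The SD or range over the 19 chromosomes shows variation along 1 map only. Both organs are mixtures of cell types, and a LAD present in some of the cells and a weaker LAD in all of them cannot be told apart. Expression was not measured, so the labelled cell types could not be checked against marker levels, and a state gives no measure of a gene's activity.

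The promoters below, each running from 250 bases before to 50 bases after a RefSeq gene start (GRCm38.p6), show the range of sequence met in constitutive LADs, with every CpG in capitals. Those of Luzp2 (chr7:54834995-54835294, plus strand), of the olfactory receptor gene Olfr1030 (chr2:85979062-85979361, plus strand) and of Prl, the prolactin gene (chr13:27057320-27057619, plus strand), belong to genes wholly inside and are poor in CpG. That of Nrg3, which encodes a neuregulin ligand of the ErbB4 receptor, is a CpG-rich promoter inside (chr14:39473039-39473338, minus strand). Those of Sugct, a mitochondrial CoA-transferase gene (chr13:17694716-17695015, minus strand), and Ppargc1a, the gene of the PGC-1alpha coactivator of mitochondrial biogenesis (chr5:51567676-51567975, minus strand), lie outside although most of each annotated gene body is inside, and the Ppargc1a start printed lies within the annotated body. These promoters were chosen after their values were seen.
Luzp2 promoter: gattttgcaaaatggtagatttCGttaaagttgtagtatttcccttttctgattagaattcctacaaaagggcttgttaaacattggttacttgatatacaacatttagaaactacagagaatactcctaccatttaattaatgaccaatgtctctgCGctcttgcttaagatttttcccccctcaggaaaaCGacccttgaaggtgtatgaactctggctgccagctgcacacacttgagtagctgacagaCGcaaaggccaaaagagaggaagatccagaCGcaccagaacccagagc
Olfr1030 promoter: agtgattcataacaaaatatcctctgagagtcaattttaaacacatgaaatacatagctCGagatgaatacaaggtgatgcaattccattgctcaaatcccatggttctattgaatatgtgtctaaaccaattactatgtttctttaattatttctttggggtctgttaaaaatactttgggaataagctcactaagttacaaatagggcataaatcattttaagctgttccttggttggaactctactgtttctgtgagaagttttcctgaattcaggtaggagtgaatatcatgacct
Prl promoter: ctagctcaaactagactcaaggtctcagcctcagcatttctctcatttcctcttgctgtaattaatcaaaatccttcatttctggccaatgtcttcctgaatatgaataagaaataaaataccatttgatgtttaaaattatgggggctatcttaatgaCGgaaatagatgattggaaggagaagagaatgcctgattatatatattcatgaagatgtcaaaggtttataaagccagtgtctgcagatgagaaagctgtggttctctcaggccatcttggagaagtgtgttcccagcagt
Nrg3 promoter: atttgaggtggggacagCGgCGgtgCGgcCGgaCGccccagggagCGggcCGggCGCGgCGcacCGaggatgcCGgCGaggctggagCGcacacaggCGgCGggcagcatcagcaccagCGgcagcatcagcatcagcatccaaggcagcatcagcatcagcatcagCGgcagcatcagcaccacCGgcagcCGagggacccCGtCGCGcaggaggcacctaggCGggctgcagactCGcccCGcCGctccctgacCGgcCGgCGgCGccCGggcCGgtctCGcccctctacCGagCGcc
Sugct promoter: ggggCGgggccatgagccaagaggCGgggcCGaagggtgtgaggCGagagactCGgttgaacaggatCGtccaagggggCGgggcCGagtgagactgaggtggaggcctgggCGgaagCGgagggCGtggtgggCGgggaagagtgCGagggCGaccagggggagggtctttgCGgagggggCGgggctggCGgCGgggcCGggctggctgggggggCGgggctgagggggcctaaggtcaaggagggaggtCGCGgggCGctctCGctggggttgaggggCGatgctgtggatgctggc
Ppargc1a promoter: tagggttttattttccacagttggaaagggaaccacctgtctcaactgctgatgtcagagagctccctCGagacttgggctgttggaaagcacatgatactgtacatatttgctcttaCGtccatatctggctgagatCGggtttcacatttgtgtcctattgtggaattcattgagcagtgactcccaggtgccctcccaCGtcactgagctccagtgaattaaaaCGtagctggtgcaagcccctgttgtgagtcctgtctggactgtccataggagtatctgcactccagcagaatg

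The mature miRNAs below are encoded inside constitutive LADs and are printed with the seed, bases 2 to 8, in capitals (RefSeq, GRCm38.p6). The first pair shares a seed and so does the second pair, and all 4 hairpins are inside. The others were chosen, after their values were seen, because they lie in the longest region of all (miR-876), in a cluster (miR-216a and miR-217) or in a short region (miR-206 and miR-128).
miR-873a-5p: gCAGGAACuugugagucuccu
miR-6370: gCAGGAACagcaaaggggaag
miR-195b: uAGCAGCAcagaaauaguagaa
miR-6342: cAGCAGCAaucuggucuuugag
miR-876-5p: uGGAUUUCucugugaaucacua
miR-216a-5p: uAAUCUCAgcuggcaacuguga
miR-217-5p: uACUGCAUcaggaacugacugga
miR-206-3p: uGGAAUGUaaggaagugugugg
miR-128-3p: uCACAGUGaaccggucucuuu

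Constitutive LADs made up 33.8% of the map (SD 7.40 over 19 chromosomes), ranging from 47.1% of chromosome 3 to 16.7% of chromosome 19. They were 66.2% of all bases listed as LAD in any source (1226 Mb). Of each source's own LAD bases, 84.2% were constitutive in heart (963 Mb), 76.8% in forebrain (1057 Mb) and 77.6% in mES cells (1046 Mb). Chromosome 3 had the highest constitutive share of heart LADs, 88.9%, and of mES LADs, 84.7%, but 78.3% of its forebrain LADs. Chromosome 7 stood apart in both directions. It had the lowest constitutive share of heart LADs, 62.4%, and of mES LADs, 49.5%, and the highest of forebrain LADs, 83.7%. The lowest constitutive share of forebrain LADs was on chromosome 13, at 65.3%.

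**Figure D1:**
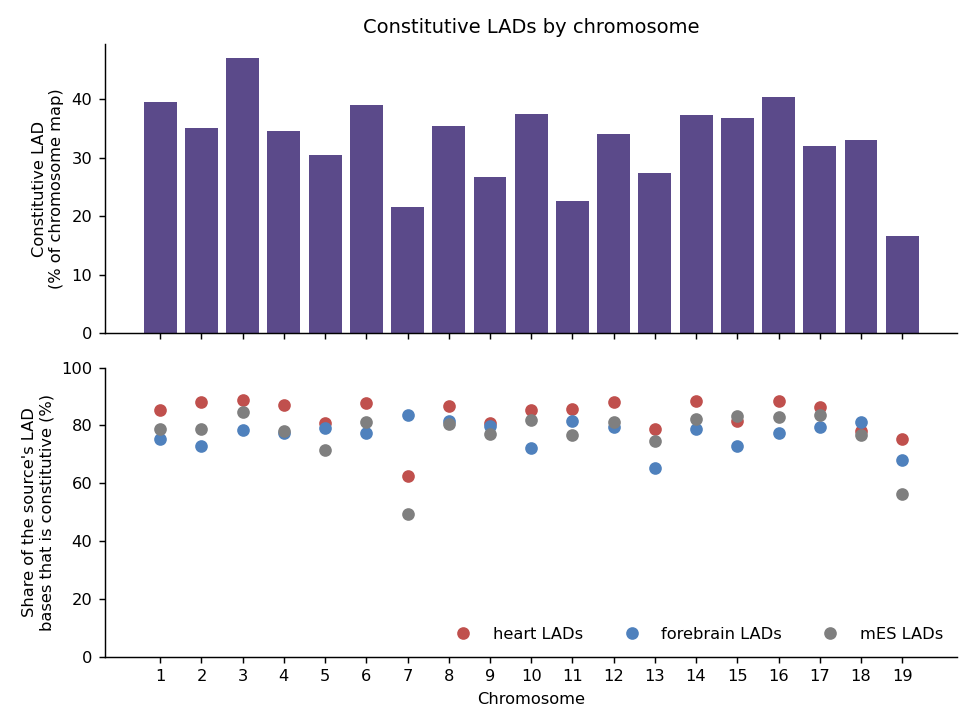
Share of each chromosome's map that is constitutive LAD (top, % of bases) and share of each source's LAD bases on that chromosome that is constitutive (bottom, %), for 1 pooled map per source. Chromosome 3 has the tallest bar, at 47.1%, and chromosome 19 the shortest, at 16.7%, while on chromosome 7 the forebrain point lies at 83.7% and the heart and mES points at 62.4% and 49.5%.

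Along the chromosomes, cut into 10 equal parts, the share of bases that was constitutive LAD lay between 32.1% and 40.1% in each of the first 8 parts. It was 26.0% in the ninth and 19.1% in the last part, and each of these lay below the chromosome's own mean on 14 of 19 chromosomes. The fourth part, at 33.5%, lay below it on 13 and the seventh, at 32.1%, on 12, so this count hardly sets the last parts apart. The SD over chromosomes in the last part was 21.2 percentage points, and single chromosomes ran from 0 to 61.4%. Mouse chromosomes are acrocentric, so the last part is the end far from the centromere.

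Constitutive LADs ranged from single bins to several Mb, and the few longest held a large share of the bases. The median length was 100 kb, with quartiles of 30 and 320 kb, a mean of 290.7 kb and a maximum of 4590 kb. The median and the number of regions depend on how gaps and short regions are treated. With gaps of up to 50 kb joined there were 1551 regions with a median of 220 kb, with 20 kb trimmed from domain ends 1830 of 180 kb, and without regions under 100 kb 1432 of 310 kb. Regions of up to 50 kb numbered 1083, 38.8% of all, and held 3.11% of the bases, and 446 of them were a single bin. The 212 regions of at least 1 Mb held 44.6% of the bases, with 67.3% on chromosome 11 and 23.4% on chromosome 19 as the extremes. The 260 longest regions held 50% of the bases. By contrast, the 1699 constitutive KODs (191.98 Mb) had a median of 50 kb and 6.76% of their bases in regions of at least 1 Mb. The 3387 constitutive open regions (458.2 Mb) had a median of 90 kb and 1.96% of bases in such regions. Constitutive LADs thus had the longest single region and the largest share in long regions of these 3 constitutive classes.

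**Figure D2:**
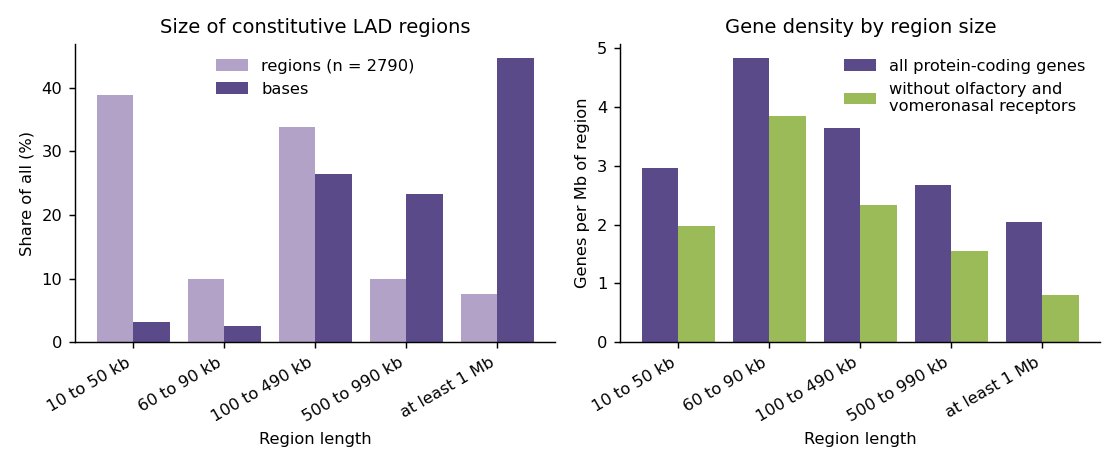
Left, share of the 2790 constitutive LAD regions and of their bases (%) by region length, and right, protein-coding genes per Mb in the same length classes, with and without olfactory and vomeronasal receptor genes. Regions of at least 1 Mb hold 44.6% of the bases, and without the receptors they have 0.804 genes per Mb.

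The deposited LADs were cut into constitutive and other parts differently in the 3 sources. In heart, 2360 of 3522 LADs held at least some constitutive bases, 1184 of 2085 did in forebrain and 1344 of 1932 in mES cells. LADs with some had median lengths of 150 kb in heart, 360 kb in forebrain and 330 kb in mES cells, against 30, 30 and 40 kb for those without any. In heart, 1536 LADs were constitutive from end to end, so that 55.1% of the 2790 regions were identical to a heart LAD. Only 221 forebrain LADs and 426 mES LADs had this property (7.92% and 15.3% of the regions). A forebrain LAD with constitutive bases held 2.36 separate regions on average and up to 22, an mES LAD 2.08 and up to 16, and a heart LAD 1.18 and up to 8.

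Just outside the rule were 217.04 Mb that were LAD in exactly 2 of the 3 sources. Of these, 121.06 Mb lacked LAD status in heart, 41.0 Mb in forebrain and 54.98 Mb in mES cells. Where the heart was the exception, 86.64 Mb was in no heart list, 16.41 Mb was KOD and 18.01 Mb was open. Where the forebrain was, 22.65 Mb was KOD, 13.99 Mb in no list and 4.36 Mb open. Where mES cells were, 28.02 Mb was in no list, 15.55 Mb was KOD and 11.41 Mb was open. Absence from every list of a source therefore made up 59.3% of the near misses, and the reason that a bin was in no list was not tested.

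The edges of constitutive LADs were set mostly by the heart map. By the rule, at least 1 source is not LAD beside each end that lies inside the map. Heart also had the fewest LAD bases, 963 Mb, in the most LADs, 3522 against 2085 in forebrain and 1932 in mES cells. How far the edges follow from this was not tested. Of 5577 region ends that lay inside the map, 3322 (59.6%, SD 9.29 over 19 chromosomes) had heart as the only source that was not LAD in the next bin, and in 2989 of these that bin was in no heart list. Forebrain alone ended 622 (11.2%) and mES cells alone 1117 (20.0%). All 3 sources ended together at 81 ends (1.45%). Open chromatin began directly at the edge in at least 1 source at 155 ends (2.78%), and KOD or open at 796 (14.3%). At 40 kb outside an end, 46.1% of positions were LAD in heart, 73.5% in forebrain and 66.9% in mES cells. In the first bin outside, these shares were 32.4%, 84.8% and 72.1%. At 490 kb outside, 49.0% of positions were again in a constitutive LAD, and 22.7% were open in heart, 19.6% in forebrain and 20.3% in mES cells.

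**Figure D3:**
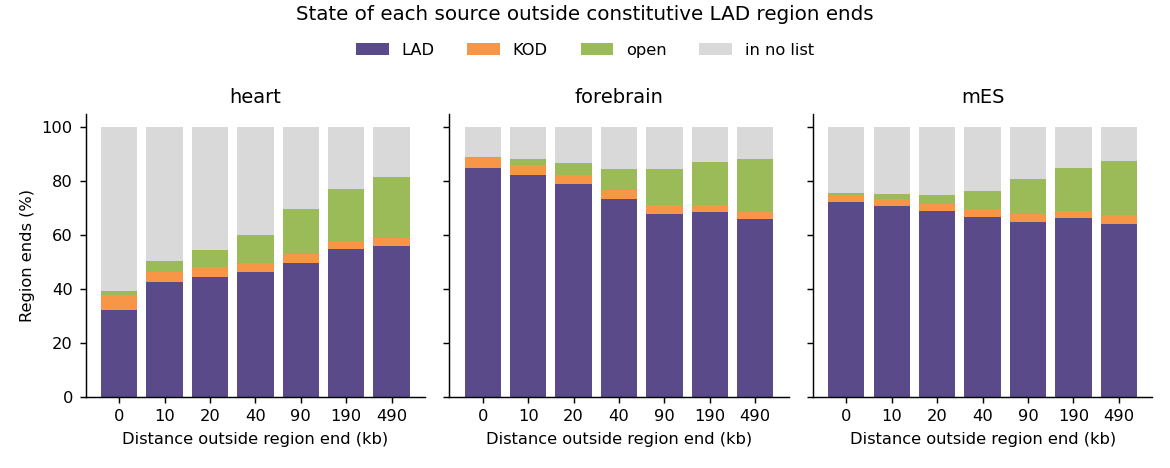
State of each source (% of region ends) at set distances in kb outside the ends of constitutive LAD regions, where 0 is the first bin outside. In the first bin 60.7% of heart positions are in no list, against 10.9% in forebrain and 24.4% in mES cells, and the open share grows with distance in all 3 sources.

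Neighbouring regions on a chromosome were separated by 2771 gaps with a median of 70 kb, and 544 gaps were a single bin. Of the 1239 gaps of up to 50 kb, 842 (68.0%) were broken by heart alone, 115 (9.28%) by forebrain alone and 206 (16.6%) by mES cells alone, and 25 held any open bin. Open bins were found in 461 of 1114 gaps of 60 to 490 kb (41.4%) and in 409 of 418 gaps of at least 500 kb (97.8%). All 3 sources broke the LAD in 442 (39.7%) and 403 (96.4%) of these. A longer gap also has more bins in which an open one can be found.

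The longest regions held few protein-coding genes or none, and several of those few were very long neuronal adhesion genes. The longest, chr4:35420001-40010000 (4.59 Mb), held Lingo2, a 1255 kb gene of a leucine-rich repeat transmembrane protein of neurons, and the short gene 1700009N14Rik. It sat in LADs of 4670 kb in heart, 4680 kb in forebrain and 4590 kb in mES cells, so its extent was close to the same in all 3. The second, chr1:112890001-117450000 (4.56 Mb), held Cntnap5a, a contactin-associated adhesion gene of the neurexin superfamily (902.6 kb), and sat in a forebrain LAD of 11430 kb, against 4690 kb in heart and 5010 kb in mES cells. No protein-coding gene touched the third, chr18:25870001-30220000 (4.35 Mb), where 13 lncRNA genes are annotated. The fourth, chr11:12580001-16470000, held Vstm2a, a secreted immunoglobulin-domain protein gene, and Pom121l12. The fifth, chr1:98140001-101960000, held Cntnap5b (718.4 kb), the organic anion transporter gene Slco6d1 and Gm29667, and matched a heart LAD of 3820 kb exactly. Luzp2, a leucine zipper protein gene of 433.6 kb, was the only protein-coding gene in chr7:52040001-55740000, whose host LADs were of 3720 kb in heart, 3720 kb in forebrain and 3710 kb in mES cells. G6pd2, an intronless copy of the glucose-6-phosphate dehydrogenase gene, was the only one in chr5:58780001-62190000. Ncam2, a neural cell adhesion gene, reached into chr16:81310001-84670000 with 74.2% of its body. The longest regions that no protein-coding gene touched were, after the third, chr1:47130001-50880000 (3.75 Mb), chr14:80260001-83680000 (3.42 Mb), chr17:59360001-62570000 (3.21 Mb) and chr6:73510001-76680000 (3.17 Mb).

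Of the 5 regions with most genes, 4 were olfactory receptor clusters. The most, 99 genes, lay in chr2:85240001-87440000 (2.2 Mb), of which 98 were olfactory receptors, among them Olfr1030, whose promoter is printed above, and the other was Fads2b, a fatty acid desaturase gene. Olfactory receptors made up 93 of 95 genes in chr9:37700001-40110000, all 56 in chr2:87900001-89180000 and 52 of 56 in chr7:102550001-103550000, where the ubiquitin ligase genes Trim21 and Trim68 lay beside them. The exception was chr16:87790001-89640000, with 61 genes. It held 24 keratin-associated protein genes of the hair shaft, such as Krtap24-1, the tight junction genes Cldn8 and Cldn17, and Grik1, a kainate-type glutamate receptor gene of 395.0 kb. The 36 regions with at least 10 genes held 981 genes, 44.6% of all genes inside. At the other end, 1408 regions (50.5%), with 39.2% of the bases, were touched by no protein-coding gene, among them 75 of the 212 regions of at least 1 Mb.

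Constitutive LADs were poor in genes. Of 20665 protein-coding genes, 2200 (10.6%) had at least 50% of the body inside, and 1854 lay wholly inside, while the regions took up 33.8% of the bases. The density was 2.71 genes per Mb (SD 2.35 over 19 chromosomes, range 0.627 to 9.35), against 6.27 in constitutive KODs, 19.6 in constitutive open regions and 8.61 over the whole map. Chromosome by chromosome, it was lower in constitutive LADs than in constitutive open regions on 19 of 19 and than in constitutive KODs on 16 of 19. Bins that were LAD in 2, 1 and 0 sources had 3.90, 5.49 and 13.9 genes per Mb, and constitutive LADs were below the 2-source bins on 14 of 19 chromosomes. Gene bodies covered 19.6% of the bases of constitutive LADs, against 37.4% of constitutive KODs and 67.9% of constitutive open regions.

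**Figure D4:**
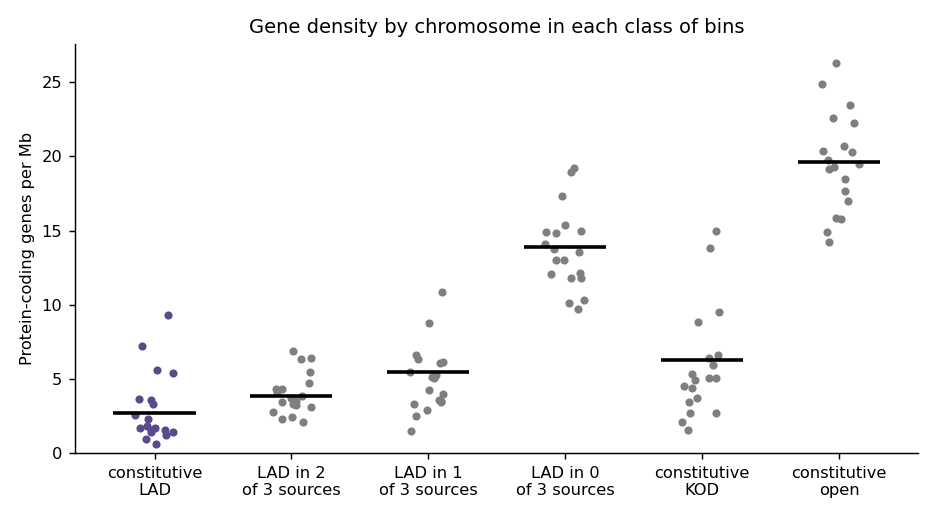
Protein-coding genes per Mb in constitutive LADs and in the other classes of bins, 1 point per chromosome (n = 19, pieces of 1 pooled map per source) with the value over all chromosomes as a black bar. The bar lies at 2.71 for constitutive LADs, the lowest of the 6 classes, and at 19.6 for constitutive open regions.

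Olfactory and vomeronasal receptor genes made up 989 of the 2200 genes inside (45.0%). Without them, 1211 genes remained, or 1.49 per Mb and 6.30% of the 19207 other protein-coding genes. Above 50 kb, these non-receptor genes were sparser the longer the region. Regions of up to 50 kb had 1.98 per Mb, those of 60 to 90 kb 3.85, those of 100 to 490 kb 2.33, those of 500 to 990 kb 1.55 and those of at least 1 Mb 0.804. Start positions and promoters come from a table that holds a start for 1802 of the 2200 genes, on 18 of the 19 chromosomes, and the values on starts and promoters below cover only its entries.

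Very long genes were inside more often than genes of middle length. Of the 216 genes of at least 500 kb, 97 (44.9%) had most of the body inside, and of the 55 of at least 1 Mb, 36 (65.5%). The share was 9.78% for genes of 100 to 500 kb and 4.85% for those of 10 to 100 kb. For genes under 10 kb it was 18.6%, and 7.44% without the receptors. A gene of at least 500 kb is longer than most regions, and 22 of the 97 lay wholly inside. The longest of these were Pcdh15, a protocadherin of the hair cell tip link (1553.56 kb), Lingo2, the neuregulin gene Nrg3, the contactin gene Cntn4, Sgcd, which encodes delta-sarcoglycan of the muscle membrane (1018.38 kb), and Grm7, a metabotropic glutamate receptor gene (921.882 kb). Cntnap5a, the sperm flagellum gene Spag16, Dpyd, the gene of the pyrimidine-degrading enzyme dihydropyrimidine dehydrogenase, and Lrrtm4, a synaptic leucine-rich repeat gene (791.305 kb), completed the 10 longest.

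Other gene classes were spread unevenly. Of 8884 pseudogenes, 30.3% had at least 50% of their length inside, of 12408 lncRNA genes 12.2%, and of 394 variable segments of antigen receptor genes 30.5%. For snRNA genes the share was 26.9% and for snoRNA genes 22.6%. It was 3.58% for tRNA genes (14 of 391) and 4.58% for miRNA genes (52 of 1136). Pseudogenes stood at 3.31 per Mb in constitutive LADs, against 3.70 per Mb over the map, and antigen receptor segments at 0.148 against 0.164. The separate regions that hold each class, antigen receptor segments included, were not counted, so these shares are of genes and not of places.

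Most genes inside also started inside, and the exceptions were mostly long. Of the 2200 genes, 1802 had at least 1 start in the table, and for 1679 of them (93.2%) every start was inside. For 103 (5.72%) no start was inside, with 27.5% among genes of 100 to 500 kb and 25.7% among those of at least 500 kb. In 81 of the 103 neither KOD nor open was listed at any start in any source. In 15, every start was open in at least 1 source, and the genes below are named from these 15 by the state of the start, chosen after their values were seen. The starts of Sugct and of Tafa4, a secreted chemokine-like protein gene, were open in all 3 sources. Those open in heart alone were Ppargc1a, Rarb, a retinoic acid receptor gene, Ddx60, an antiviral helicase gene, and Dpy19l2, a gene of sperm head formation. Those open in forebrain alone were Ptprt, a receptor tyrosine phosphatase gene, Unc80, a subunit of the NALCN sodium leak channel, Samd5 and Zfp560. Nell1, a secreted growth factor gene of bone formation, and Gm281 had starts open in mES cells alone. For Ppargc1a, 60.5% of the annotated 661.6 kb body was constitutive LAD, and its printed start was open in heart and LAD in forebrain and mES cells. That start lies 548.1 kb inside the annotated body, so it does not begin the stretch that the 60.5% is taken over, and the same holds for Rarb, at 506.9 kb. In 4 of the 15 genes the first start in the table lay over 10 kb inside the body, and upstream starts of these genes were not examined. For Sugct, 83.9% of 837.3 kb was inside.

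Sensory receptor families made up the largest group of genes inside. Of 1104 olfactory receptor genes, the odorant receptors of the nose, 843 (76.4%) were inside, in 64 regions, against 10.6% of all protein-coding genes, and examples wholly inside are Olfr16, Olfr1408, Olfr1406 and Olfr218 of chromosome 1. The family was LAD over most of the body for 919 genes in heart, 918 in forebrain and 935 in mES cells, and 118 were LAD in no source. Over all 20665 protein-coding genes, the numbers LAD were 2891 in heart, 3388 in forebrain and 3376 in mES cells. Of the pheromone receptors, 64 of 123 Vmn2r genes (52.0%, 31 regions; Vmn2r80, Vmn2r81, Vmn2r82 and Vmn2r85) and 82 of 231 Vmn1r genes (35.5%, 19 regions; Vmn1r193 to Vmn1r196) were inside. The Vmn1r family was split by source, with 110 LAD in heart, 107 in forebrain and 196 in mES cells. Of 38 taste receptor genes 29 (76.3%) were inside, in 7 regions, with Tas2r134, Tas2r118, Tas2r138 and Tas2r139 among them. Of 27 formyl peptide and Mrg receptor genes, which serve innate immune and itch sensing, 10 were inside, such as Fpr3, Fpr-rs4, Mrgpra9 and Mrgpra4. Members of a cluster share a region, so the counts of regions, not of genes, say how many separate places a family was found in. The sources used here do not say how reads shared by near-identical copies were placed.

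**Figure D5:**
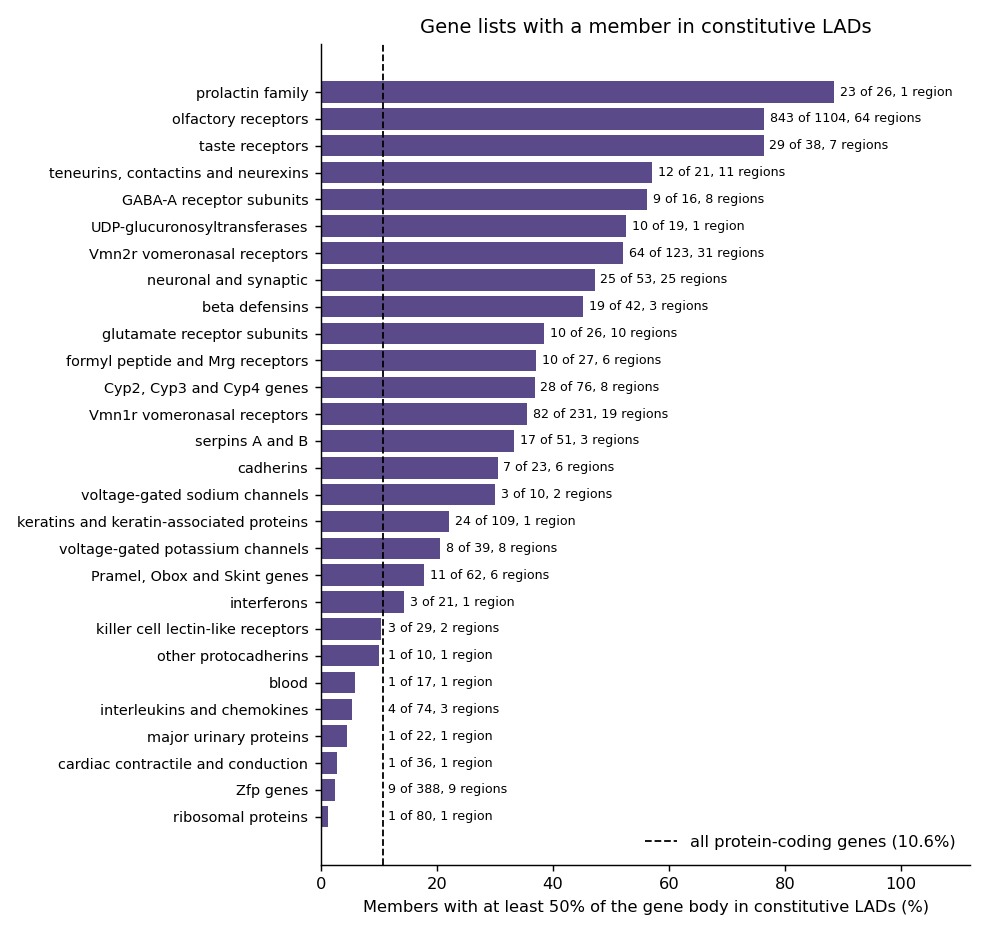
Share of each list's members with at least 50% of the gene body in constitutive LADs (%), with the number of members and of separate regions, for the lists with at least 1 member inside. The dashed line is the share of all protein-coding genes, 10.6%, and prolactin genes (23 of 26), olfactory receptors (843 of 1104) and taste receptors (29 of 38) lie furthest above it.

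Several clusters of related genes with roles in single organs were inside as blocks. Over all protein-coding genes the share inside was 10.6%, or 6.30% without olfactory and vomeronasal receptors. Neighbouring members of a cluster share a region, so these counts are of genes and not of separate places. The prolactin family, hormones of the pituitary and placenta, had 23 of 26 genes in 1 region, chr13:25930001-28360000, among them Prl, Prl3d1, Prl3d2 and Prl3d3. All 10 UDP-glucuronosyltransferase genes inside, of 19, stood in chr5:86880001-87790000, such as Ugt2b34, Ugt2b1, Ugt2b35 and Ugt2b36, enzymes of hormone and drug conjugation in the liver. Of 76 cytochrome P450 genes of families 2 to 4, 28 were inside, in 8 regions, with Cyp2c65, Cyp2c66, Cyp2c40 and Cyp2c69 as examples. Of 42 beta defensins, antimicrobial peptides of epithelia, 19 were inside, in 3 regions (Defb38, Defb39, Defb12 and Defb34). Of 51 serpins of clades A and B, 17 were inside, 12 of them in chr1:106860001-107620000 with Serpinb5, Serpinb12, Serpinb13 and Serpinb3a. Of 109 keratin and keratin-associated genes, 24 were inside, all in the chromosome 16 region with Krtap26-1, Krtap27-1 and Krtap13-1. Another 58 of the 109 were KOD in all 3 sources, while 1203 of all 20665 protein-coding genes lay in constitutive KODs. The separate places that hold these 58 genes were not counted.

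Some clusters missed the rule through 1 or 2 sources. Of all 20665 protein-coding genes, 2891 were LAD over at least 50% of the body in heart, 3388 in forebrain and 3376 in mES cells. The counts below are of genes in clusters, not of separate places. Of 29 alpha defensins, antimicrobial peptides of the gut, 0 were LAD over most of the body in heart, 2 in forebrain and 29 in mES cells, and 0 were inside. Of 22 major urinary protein genes, pheromone carriers made by the liver, 5 were LAD in heart, 22 in forebrain and 8 in mES cells, and Mup5 alone was inside. Of 62 Pramel, Obox and Skint genes, which act in germ cells, early embryos and skin T cell selection, 20 were LAD in heart, 16 in forebrain and 50 in mES cells, and 11 were inside, such as Pramel32, Skint8, Skint7 and Skint1. Of 29 killer cell lectin-like receptor genes, 3 were LAD in heart, 14 in forebrain and 20 in mES cells, and Klri1, Klri2 and Klra2 were inside, a share of 10.3% beside 10.6% for all protein-coding genes. Of 28 pregnancy-specific glycoprotein and Ceacam genes, 13 were LAD in heart, 0 in forebrain and 12 in mES cells, and 0 were inside.

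Neuronal adhesion molecules and ion channels were inside mostly one at a time, in separate regions. Of 53 neuronal and synaptic genes 25 (47.2%) were inside, in 25 separate regions, against 10.6% of all protein-coding genes, with 30 LAD in heart, 35 in forebrain and 43 in mES cells. The count depends on the rule, with 7 of 53 wholly inside and 38 at least 50% inside bins that were LAD in at least 2 sources. Nrg3, Cntn4, Cntnap5a and Grik1 were wholly inside. LAD counts over all 20665 protein-coding genes were 2891 in heart, 3388 in forebrain and 3376 in mES cells. Several genes named here are very long. Of all genes of at least 500 kb 44.9% were inside, and of those of 100 to 500 kb 9.78%. Whether these lists differ from other genes of their length was not tested. Of 21 teneurin, contactin and neurexin genes, cell adhesion molecules of synapses, 12 were inside (57.1%), with Cntnap5b, Cntnap5a, Cntnap5c and Cntn3 wholly so. Of 16 subunits of the GABA-A receptor, the main inhibitory receptor of the brain, 9 were inside (56.3%), such as Gabra6 on chromosome 11 and Gabrg1 and Gabra2 on chromosome 5. Of 26 glutamate receptor genes 10 were inside (38.5%), among them Grm3 and Grm7. Of 10 voltage-gated sodium channel genes, Scn9a lay wholly inside, Scn1a with 82.8% and Scn2a with 68.2% of the body. Of 39 voltage-gated potassium channel genes 8 were inside, including Kcnv1, Kcnh8 and Kcna4. Of 23 cadherin genes 7 were inside, of which Cdh9 wholly, and of 10 protocadherins outside the clusters 1 was, Pcdh15, a share close to that of all protein-coding genes. With the whole body required, 6 teneurin, contactin and neurexin genes, 5 GABA-A subunits, 5 glutamate receptor genes, 3 potassium channel genes and 1 cadherin gene were inside. Of the 21 teneurin, contactin and neurexin genes, 14 were LAD in heart, 14 in forebrain and 14 in mES cells, and their activity was not measured.

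No member with at least 50% of its body inside was found among the Hox genes (39), replication-dependent histone genes (68), proteasome subunits (38), mitochondrial complex I subunits (35), housekeeping genes (18), clustered protocadherins (57), pluripotency genes (25), cardiac (21) and forebrain (28) transcription factors, endothelial genes (18), liver and gut genes (22), germline genes (17) and genes of H3K9 methylation and the lamina itself (24). Over all protein-coding genes the share inside was 10.6%, or 6.30% without the receptors, so a count of 0 in the shorter of these lists lies near that background and is not a result about the list. Neighbouring members of a cluster, as among the clustered protocadherins, share a place, so the gene numbers of the longer lists are not numbers of separate places. Of 80 ribosomal protein genes 1 was inside, Rpl10l, the intronless testis copy of Rpl10. Of 36 cardiac contractile and conduction genes 1 was, Kcnj3, a subunit of the acetylcholine-gated potassium channel of the atria and of neurons, with 58.0% of its body, and of 17 blood genes 1 was, Ptprc, which encodes CD45, with 82.3%. Of 388 genes named Zfp 9 were inside (2.32%), such as Zfp120, Zfp352, Zfp330 and Zfp558. Of 21 interferon genes 3 were inside (Ifna14, Ifna9 and Ifna12), and of 74 interleukin and chemokine genes 4 (Il7r, Cxcl5, Cxcl3 and Cxcl13).

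Promoters inside constitutive LADs were poor in G and C and in CpG. The 1913 promoters with their start inside had a median GC content of 39.7% and a median of 2 CpG in 300 bases, with quartiles of 1 and 4. The printed promoters of Olfr1030 and Prl had 1 CpG each, and that of Luzp2 had 5, above the upper quartile. The 1113 promoters in constitutive KODs had 53.3% and 6, the 8974 in constitutive open regions 60.3% and 19, and all 20085 promoters 57.0% and 14. The ratio of observed to expected CpG had a median of 0.147 inside (SD 0.0661 over 18 chromosomes), against 0.294 in constitutive KODs, 0.731 in constitutive open regions and 0.586 over all promoters. It was lower than in constitutive open regions on 18 of 18 chromosomes. Receptor genes did not account for all of this. Without them, 1068 promoters inside had a median GC content of 44.7% and a CpG ratio of 0.210. The letters TATAAA, searched on both strands over the 300 bases, were found in 34.8% of promoters inside, 27.5% of those without the receptors, 7.14% in constitutive open regions and 12.7% of all. In the Prl promoter they begin 24 bases before the start. A match is a run of letters and more likely by composition where A and T are common, and no use of the site was measured.

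A minority of promoters inside was CpG-rich, with a ratio of at least 0.6 and a GC content of at least 50%. They numbered 128 (6.69%), against 61.7% in constitutive open regions and 46.5% of all promoters, and none of the 845 promoters of receptor genes was among them. They had a median of 32.8 kb from the start to the nearest region end and 59.4% within 50 kb, while the 940 other promoters of non-receptor genes had a median of 77.5 kb and 38.7% within 50 kb. This distance is bounded by the length of the region. The regions of the CpG-rich promoters had a median of 415 kb, and those of the others were not measured, so edge position and region length were not separated. The printed Nrg3 promoter, with 36 CpG, stands 6.91 kb from the end of the 2290 kb region chr14:37190001-39480000 that holds the whole gene. Those of Vstm2a, with 34 CpG at 212.3 kb from an end of the 3890 kb region on chromosome 11, and of Syt10, a synaptotagmin gene, with 35 at 211.9 kb, were deeper. The most CpG, 54, were in the promoter of Cadps2, a gene of dense-core vesicle release, 0.579 kb from the end of a 20 kb region. Cadps2 and Syt10 were chosen after their values were seen. By comparison, the printed Sugct promoter, open in all 3 sources, had 25 CpG, and that of Ppargc1a, open in heart, had 5.

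Of 919 miRNA hairpins with a sequence, 44 (4.79%) were inside, and 418 (45.5%) were open in all 3 sources. Those inside gave 59 mature names. The hairpins of miR-873a, miR-873b and miR-876 stood within the span of Lingo2 in the longest region, with miR-876-5p at chr4:36645422-36645443 and miR-873a-5p at chr4:36668556-36668576. The seed of miR-873a-5p, CAGGAAC, was shared by 1 other name, miR-6370 (chr6:19555438-19555458), which was inside as well. A cluster known from the pancreas, miR-216a, miR-216b, miR-216c and miR-217, stood together in chr11:26770001-28840000. The seed AGCAGCA belongs to the miR-15 and miR-16 family, whose hairpins lay outside, as open in all 3 sources for Mir15b and Mir16-2 and as KOD in heart and forebrain and open in mES cells for Mir15a and Mir16-1, whereas miR-195b (chr2:56785825-56785846) and miR-6342 (chr1:29421552-29421573) carry it inside. The miR-128-3p sequence, a miRNA of neurons, comes from 2 hairpins. Mir128-2 was inside, in a region of 20 kb (chr9:112110001-112130000), and Mir128-1 on chromosome 1 was open in all 3 sources. miR-206, known from skeletal muscle, stood in a region of 80 kb, chr1:20600001-20680000. Let-7j, in a region of 2190 kb on chromosome 3, and miR-344b, in a region of 40 kb on chromosome 7, were also inside. All 6 other miR-344 hairpins with the seed of miR-344b-5p were LAD in mES cells, but 1 of them was LAD in heart and 2 in forebrain. These hairpins were chosen for their names and positions after the values were seen.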

How the data were processed

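The data are CUT&RUN libraries of H3K9me2, Lamin B1 and IgG. Per the submitters' processing notes, the reads were handled on mm10 by Bowtie2 2.5.0, Trim Galore, cutadapt 4.2, deepTools and Picard. The method that turned libraries into domains, its thresholds, the pooling and the use of IgG are not given in the sources used here. The 9 deposited lists hold coordinates of domains, rounded to bins of 10 kb, without a score. No other per-sample column was used, and the signal tracks that the labels mention were not used here. Depth and calling threshold can both change how long a listed domain is.

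Maps were painted over chromosomes 1 to 19 with Python 3.11.15, numpy 2.4.6 and pandas 2.3.3, checked on a simulated map, and figures drawn with matplotlib 3.10.9. Genes, promoters and miRNAs came from RefSeq (GRCm38.p6, the assembly of mm10) by gene ID. A gene counts as inside if at least 50% of its body is. No test was made, since each source has 1 pooled map. Members and lists were chosen with earlier results of these data known. Symbol lists matched 279 of 290 entries by symbol or synonym.

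The genes and regions named are the 10 longest regions with up to 6 genes each, the 5 with most genes, the 5 longest without one, the 10 longest genes wholly inside, and up to 4 members wholly inside per list (all members inside where a list has under 5), unless said to be chosen after their values were seen. Not every gene this rule gives is printed. Alternatives were 20 kb trimmed from domain ends, short domains or regions left out, other denominators, gaps joined, LAD in at least 2 sources, and other rules for a gene, a flanking bin or a promoter.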

Additional observations from a re-analysis of the deposited data

How the results depend on the processing

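With 1 pooled list per source, no replicate could be left out. No paired analysis was possible because the lists pool the replicates, and no result comes from a test. A value is called unchanged here if it moved by less than its SD over chromosomes, and a count if it stayed within 1.5 times. The extent, 33.8% of the map, was 41.6% of the bins listed in all 3 sources and 42.8% with LAD in at least 2 of 3 sources. It was 29.9% with 20 kb trimmed and 32.2% without LADs under 100 kb. Both count as unchanged only because the limit is the SD of 7.40 over chromosomes, which is wide beside these losses. The number of regions, 2790, fell to 1551 when gaps of up to 50 kb were joined, 1432 without regions under 100 kb and 1830 with 20 kb trimmed from domain ends. The median length, 100 kb, was 130 kb with gaps of 10 kb joined, 220 kb with gaps of up to 50 kb joined, 310 kb without regions under 100 kb and 180 kb with 20 kb trimmed. Heart alone was not LAD at 59.6% of positions in the first bin outside an end and at 24.0% of those 50 kb outside. Gene density, the number of genes inside, the summed list count and the promoter CpG ratio stayed within these limits under each alternative run for them. For density the limit was wide, an SD of 2.35 against 2.71 genes per Mb, so staying within it says little. The density was 2.29 with the whole gene body inside, 2.74 by gene midpoint and 2.55 with trimming. The 2200 genes inside became 1854 with the whole body inside, 1836 with trimming and 3120 with LAD in at least 2 sources. Of 43 lists, 11 changed when the whole gene body had to be inside, 5 with trimming and 19 with LAD in at least 2 sources, as in the neuronal list with 7 and 38 members against 25. The lists carry no depth, so short domains and gaps cannot be weighed by it.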
